A study of Mus musculus with 4 samples.

Results

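The genes described here are 9 inflammatory CC chemokine genes, Ccl2, Ccl3, Ccl4, Ccl5, Ccl7, Ccl8, Ccl9, Ccl11 and Ccl12, measured in mouse distal colon. They were chosen by symbol: every probe set of the array that the platform annotation assigns to 1 of these genes alone was taken, which gave 10 probe sets, 2 for Ccl9 and 1 for each of the other genes. They stand among 12189 genes that passed a filter on dim signal and were compared in the same way. RNA came from fragments of distal colon and was measured on 4 Affymetrix arrays, for each of which the labels name a single mouse. The groups were Adamts12 KO mice given DSS, Adamts12 KO mice without treatment, Adamts12 WT mice given DSS and Adamts12 WT mice without treatment, with 1 array in each. Adamts12 encodes a secreted metalloprotease, and the labels give neither the part of the gene that was removed nor the strain. DSS, or dextran sodium sulfate, is toxic to the lining of the colon and is used to produce colitis in mice. It was dissolved at 2% in the drinking water from an age of 8 to 10 weeks, for 8 days in the treatment protocol or 7 days in the series text, and then withheld for 1 day. Because each group was measured once, differences between arrays could not be checked against replicates, and the number of arrays limits the precision.

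CC chemokines are small secreted proteins, named for a pair of adjacent cysteines, that bind G protein-coupled receptors on leukocytes and draw them into tissue. Ccl2, Ccl7 and mouse Ccl12 act on Ccr2 and call monocytes from the blood, Ccl11 (eotaxin) acts on Ccr3 and draws eosinophils, and Ccl3, Ccl4, Ccl5 and Ccl9 act on receptors of macrophages, granulocytes and T cells. In injured colon, macrophages, fibroblasts, endothelium and epithelium are all known sources of these proteins.

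All 9 genes lie on mouse chromosome 11. In the RefSeq annotation of assembly GRCm38.p6, Ccl2, Ccl7, Ccl11, Ccl12 and Ccl8 follow each other in that order, with Ccl1 after them, and a second group holds Ccl5, Ccl9, Ccl6, Ccl3 and Ccl4. The RefSeq promoter table matched 4 of the 9 genes. The 250 bases before the start sites of these 4 are printed. The other genes, among them Ccl2 and Ccl11, had no entry. Of the genes printed, Ccl12 (chr11:82101595-82101844, plus strand) and Ccl9 (chr11:83578637-83578886, minus strand) were highest in the untreated KO colon. Ccl3 (chr11:83649379-83649628, minus strand) was highest in the KO colon with DSS, and Ccl8 (chr11:82114935-82115184, plus strand), the next gene after Ccl12, differed little. Capitals mark matches to the motifs searched on both strands.
Ccl12: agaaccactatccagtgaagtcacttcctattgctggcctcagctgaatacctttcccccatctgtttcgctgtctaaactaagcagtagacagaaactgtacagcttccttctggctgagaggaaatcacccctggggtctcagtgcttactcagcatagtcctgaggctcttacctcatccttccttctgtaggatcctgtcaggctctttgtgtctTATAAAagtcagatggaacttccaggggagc
Ccl8: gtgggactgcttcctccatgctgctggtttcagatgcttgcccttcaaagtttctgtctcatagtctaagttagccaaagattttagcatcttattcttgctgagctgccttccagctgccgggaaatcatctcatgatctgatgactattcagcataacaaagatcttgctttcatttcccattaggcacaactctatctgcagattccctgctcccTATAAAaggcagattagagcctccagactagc
Ccl9: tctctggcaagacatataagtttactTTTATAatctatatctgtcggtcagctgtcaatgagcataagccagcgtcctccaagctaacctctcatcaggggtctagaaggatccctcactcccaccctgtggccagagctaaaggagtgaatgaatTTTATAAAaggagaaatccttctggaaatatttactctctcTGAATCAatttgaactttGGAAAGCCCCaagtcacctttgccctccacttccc
Ccl3: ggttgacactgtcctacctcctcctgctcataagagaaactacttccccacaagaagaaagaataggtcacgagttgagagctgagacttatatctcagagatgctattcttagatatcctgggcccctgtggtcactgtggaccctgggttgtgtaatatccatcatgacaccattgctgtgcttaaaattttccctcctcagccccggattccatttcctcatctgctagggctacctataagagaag
The TATA box letters TATAAA were found in Ccl12 from 31 to 26 bases before the start and in Ccl8 from 32 to 27 bases before it, and in 12.4% of the 32851 promoter windows in the table. Ccl9 held them from 92 to 87 bases before the start, and on the other strand, in part over the same bases, from 94 to 89 and from 224 to 219. The AP-1 letters TGANTCA were found in Ccl9 from 53 to 47 bases before the start (6.75% of all windows), as was the NF-kB consensus from 35 to 26 (7.25% of all windows). The core of the interferon-stimulated response element (2.98% of all windows), and the STAT site TTCNNNGAA (7.02%) were in none of the 4 windows, and the Ccl3 window held none of the 5 motifs. A match is a description of the letters in this window.

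Values are on a log2 scale, on which a difference of 1 is 2-fold. Array medians lay between 3.42 and 3.46. The background limit was set at 1.39, the maximum over 9 Y-linked probe sets (Xist was at least 9.68 on each array), and the lowest value of the 10 CC chemokine probe sets was 1.67. The brighter Adamts12 probe set had values of 1.41 and 1.42 on the KO arrays with and without DSS, against 2.18 on both WT arrays, in the direction of the labels but dim. The arrays differed in genes of position along the colon, and the untreated KO array stood farthest apart. Hoxb13, a homeobox gene of the distal end, had a value of 2.48 there, against 9.47 on the untreated WT array, and the proximal marker Fabp2 had 10.62, against 6.72. The DSS arrays differed in position genes too. Hoxd13, another distal gene, had 7.20 and 4.22 on the KO and WT DSS arrays, against 8.82 on the untreated WT array, and Fabp2 had 4.51 and 8.07 on the KO and WT DSS arrays. Over the 5 distal genes the median difference was 1.32 for DSS in KO, -1.63 for DSS in WT, 0.56 for KO minus WT with DSS and -1.84 for KO minus WT without DSS, so position differed along with the groups in each comparison, and its part in the chemokine values was not tested. In the descriptions of the 9 genes, DSS differences in KO are therefore given together with a second difference. It sets the KO DSS array against the untreated WT array, a baseline chosen after the values were seen. That pair differs in genotype as well as in DSS, so it does not give the DSS effect alone. Position differed there too, with a median of -1.07 over the 5 distal genes. Markers of epithelium (Epcam, 10.98 to 11.51) and smooth muscle (Acta2, 10.54 to 11.28) were bright on all 4 arrays.

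The 9 genes had a few patterns, as the plot of their values by array shows. Every gene had its highest value on a KO array, a position that 51.6% of all genes compared share, and 6 of the 9 had it on the KO DSS array, where 22.7% of all genes do. The 6 were Ccl2, Ccl3, Ccl4, Ccl7, Ccl8 and Ccl11. The other 3, Ccl5, Ccl9 and Ccl12, were highest in the untreated KO colon. Both KO arrays lay above both WT arrays for 4 genes, Ccl3, Ccl4, Ccl8 and Ccl12, against 8.89% of all genes. Neither Ccl3 nor Ccl12 exceeded the median of a WT array, so each was kept for its KO values. Their place in the counts of genes highest in KO thus follows in part from the filter. These counts are descriptions and not a test. Both DSS arrays lay above both untreated arrays for 2 genes, Ccl2 and Ccl7, against 26.4% of all genes. That order of the arrays was thus not more frequent here than elsewhere. Within each genotype, Ccl3 and Ccl4 were higher with DSS too, by 1.16 and 0.35 in KO and by 0.37 and 0.30 in WT. Of all genes, 53.6% were higher with DSS in KO and 48.5% in WT, and the share higher in both genotypes was not counted.

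**Figure D1:**
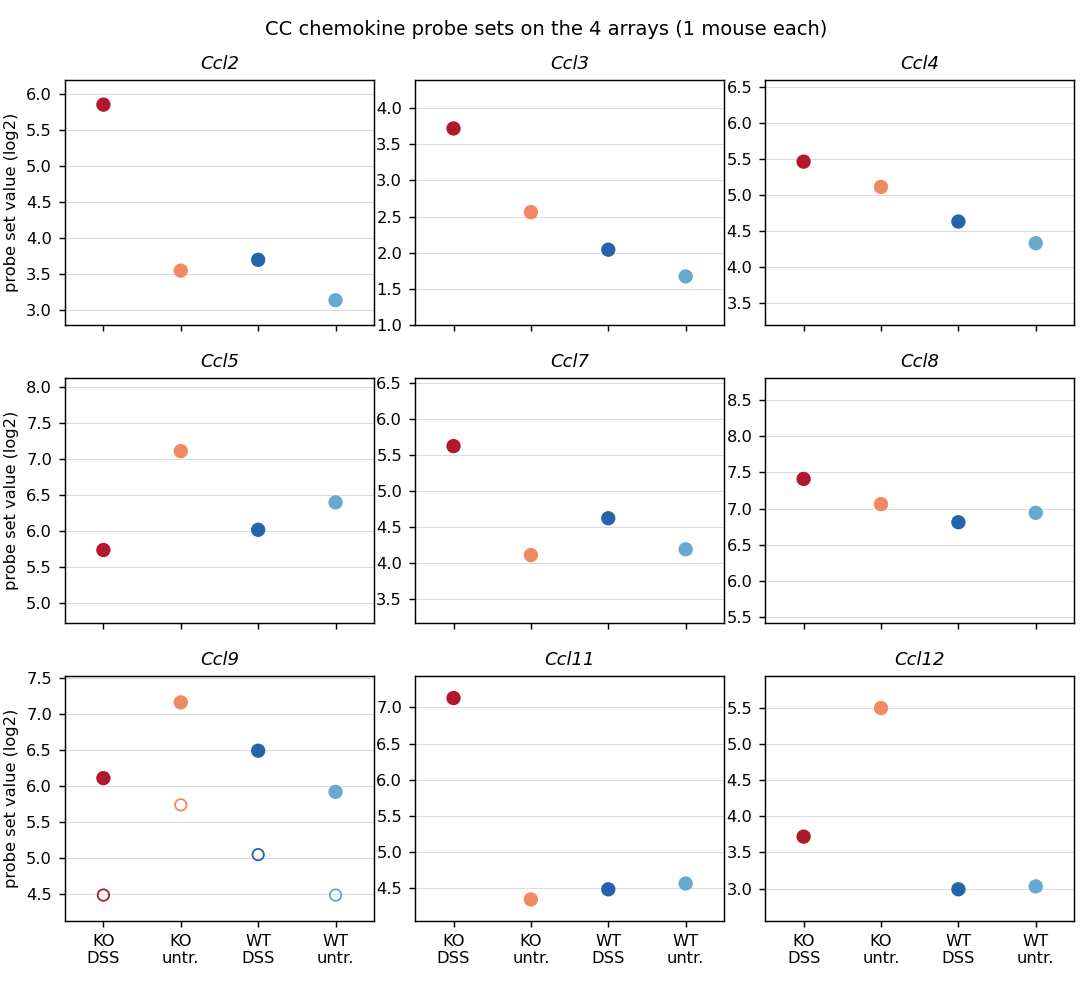
Probe set values (log2) of each CC chemokine gene on the 4 arrays, 1 mouse each, with every panel spanning the same range of log2 units but a different level; open circles are the dimmer Ccl9 probe set. Ccl2, Ccl7 and Ccl11 stand out on the KO DSS array (5.85, 5.62 and 7.13), while Ccl12, Ccl9 and Ccl5 are highest on the untreated KO array (5.50, 7.16 and 7.11).

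Among the attractants of monocytes, Ccl2 had the widest difference with DSS. Its value was 5.85 with DSS and 3.55 without in KO colon, against 3.70 with DSS and 3.14 without in WT colon. The KO DSS array stood alone, and the other 3 arrays lay within 0.56 of each other. The DSS difference was 2.30 in KO (4.92-fold) and 0.56 in WT (1.47-fold), and 153 genes (1.26%) had a larger one in KO. Against WT, the KO colon was higher by 2.15 with DSS (4.44-fold) and by 0.41 without. With the untreated WT colon as baseline, KO with DSS was higher by 2.71, a difference of DSS and genotype together.

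Ccl7, which shares Ccr2 with Ccl2 and lies next to it, was also highest on the KO DSS array and next highest on the WT DSS array, above both untreated arrays. Its value was 5.62 with DSS and 4.11 without in KO colon, and 4.62 with DSS and 4.19 without in WT colon. DSS differences were 1.51 in KO (2.85-fold) and 0.43 in WT (1.35-fold). The KO minus WT difference was 1.00 with DSS, exactly at the 2-fold limit, and -0.08 without DSS, where the arrays were nearly level. The difference with DSS was 0.99 after median centring and 0.94 after quantile normalization. With the untreated WT colon as baseline, KO with DSS was higher by 1.43.

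Ccl12, a Ccr2 ligand of the mouse, had the opposite arrangement. Its value was 3.72 with DSS and 5.50 without in KO colon, and 2.99 with DSS and 3.03 without in WT colon. The untreated KO array was highest, the KO DSS array came next, and the WT arrays were level. The DSS difference was -1.78 in KO (3.43-fold lower with DSS) and -0.04 in WT. Ccl12 was higher in KO than in WT by 0.73 with DSS (1.66-fold) and by 2.47 without it (5.54-fold), a gap that 66 genes (0.541%) exceeded. With the untreated WT colon as baseline, KO with DSS was higher by 0.69, so the sign depended on which untreated array was used. Ccl12 lay above the array median on the KO arrays only, and so could be kept by the filter only through them.

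Ccl8, whose mouse product acts on Ccr8, varied least. Its values were 7.41 with DSS and 7.06 without in KO colon, and 6.81 with DSS and 6.94 without in WT colon. All 4 arrays lay within 0.60 of each other. DSS differences were 0.35 in KO and -0.13 in WT, and KO minus WT differences were 0.60 with DSS and 0.12 without. Taking untreated WT colon as baseline gave 0.47 for KO with DSS.

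Ccl11, the eosinophil attractant, had the largest difference of the 9 genes. Its value was 7.13 with DSS and 4.34 without in KO colon, against 4.48 with DSS and 4.56 without in WT colon. The KO DSS array stood alone and the other 3 lay within 0.22 of each other. DSS differences were 2.79 in KO (6.92-fold) and -0.08 in WT (0.946-fold), and 95 genes (0.779%) had a larger one in KO. With DSS, KO was higher than WT by 2.65 (6.28-fold), which 25 genes (0.205%) exceeded, and without DSS it was lower by 0.22 on the log2 scale (0.859-fold). The DSS effect in KO exceeded that in WT by 2.87, the widest gap among the 9 genes, for which there is no test with 1 array in a group. Taking the untreated WT colon as baseline gave 2.57 for KO with DSS.

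The receptor of Ccl11 and most markers of its target cells were dim on these arrays. Ccr3 had values of 0.95 and 1.22 in KO colon with and without DSS, and of 0.81 and 1.12 in WT colon with and without DSS, all under the background limit. The eosinophil peroxidase gene Epx was under the limit on all 4 arrays too, and Siglecf, a surface lectin of mouse eosinophils, was lowest on the KO DSS array (1.52, against 2.95 without DSS in KO). Il5ra, the interleukin-5 receptor chain that B lineage cells carry as well, was the 1 of 4 measured eosinophil markers that was highest on the KO DSS array, at 3.62, with 1.02 and 1.40 for the untreated KO and the WT DSS array and 1.02 for the untreated WT array. In bulk tissue, fewer cells of a type and less RNA per cell cannot be told apart.

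Ccl3, also called MIP-1 alpha and secreted by activated macrophages, had values of 3.72 with DSS and 2.56 without in KO colon, and of 2.04 with DSS and 1.67 without in WT colon. Both KO arrays lay above both WT arrays. The DSS difference was 1.16 in KO (2.23-fold) and 0.37 in WT (1.29-fold), and the KO minus WT difference was 1.68 with DSS (3.20-fold) and 0.89 without (1.85-fold). Ccl3 lay above the array median on the KO DSS array alone, by which it passed the filter, so it had to be higher there. Taking the untreated WT colon as baseline gave 2.05 for KO with DSS.

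Ccl4, the partner of Ccl3 and its neighbour on the chromosome, had values of 5.46 with DSS and 5.11 without in KO colon, against 4.63 with DSS and 4.33 without in WT colon. Its genotype difference was nearly the same in both treatments, 0.83 with DSS (1.78-fold) and 0.78 without (1.72-fold). The DSS differences were as even, at 0.35 in KO and 0.30 in WT, and none of these 4 differences reached 2-fold. With untreated WT colon as baseline, KO with DSS was higher by 1.13 (2.19-fold).

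Ccl5 (RANTES), a product of T cells, NK cells and macrophages, had lower values with DSS. Its value was 5.74 with DSS and 7.11 without in KO colon, and 6.02 with DSS and 6.40 without in WT colon. Both untreated arrays lay above both DSS arrays, with the untreated KO array highest. The DSS difference was -1.37 in KO (2.58-fold lower) and -0.38 in WT (1.30-fold lower). KO was lower than WT by 0.28 on the log2 scale with DSS and higher by 0.71 without. The difference was -0.66 for KO with DSS when untreated WT colon was the baseline, the same direction at under 2-fold. Of 8 T and NK cell markers, 7 were also highest on the untreated KO array. Among them were the granzyme gene Gzmb (6.40, with 4.73 to 5.18 on both WT arrays) and the granule membrane gene Nkg7 (3.38 with DSS and 5.17 without in KO, 3.74 with DSS and 4.01 without in WT). The share of all genes highest on that array was not counted by itself. Of all genes compared, 51.6% were highest on a KO array and 22.7% on the KO DSS array. All 5 proximal position markers and 4 of 5 epithelial markers were highest on the untreated KO array too, against 0 of 6 fibroblast markers. The summed linear level of the T and NK cell list was 180 with DSS and 309 without in KO, against 182 with DSS and 190 without in WT. The part of these cells in the Ccl5 values was not tested.

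Ccl9 (MIP-1 gamma), a Ccr1 ligand made by macrophages and epithelium of the gut, was measured by 2 probe sets that had the same order of the KO arrays and of the WT arrays. The brighter had values of 6.11 with DSS and 7.16 without in KO colon, and of 6.49 with DSS and 5.92 without in WT colon. The dimmer had 4.49 with DSS and 5.74 without in KO, and 5.05 with DSS and 4.49 without in WT. The direction of the DSS difference thus differed between the genotypes on both probe sets: it was -1.05 and -1.25 in KO, and 0.57 and 0.56 in WT. Without DSS, KO was higher than WT by 1.24 and 1.25, and with DSS it was lower, with differences of -0.38 and -0.56. When untreated WT colon was the baseline, KO with DSS differed by 0.19 and 0.00.

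Counted over all 9 genes, DSS in the KO colon came with at least 2-fold higher values for 4 genes (Ccl2, Ccl3, Ccl7 and Ccl11), where 10.8% of all genes were that much higher, and with at least 2-fold lower values for 3 (Ccl5, Ccl9 and Ccl12), where 6.68% were lower. Of the 9, 6 lay above 0, where 53.6% of all genes did. In the WT colon, 0 of the 9 differed by 2-fold with DSS in either direction, where 5.82% of all genes were higher and 4.96% lower, and 5 of the 9 lay above 0, where 48.5% of all genes did. The median DSS difference of the 9 genes was 0.35 in KO and 0.30 in WT, beside 0.06 and -0.01 for all genes. The nearest to the 2-fold limit on the outside were Ccl4 and Ccl8 in KO (0.35 each) and Ccl9 in WT (0.57), and on the inside Ccl9 (-1.05) and Ccl3 (1.16) in KO. When untreated WT colon was the baseline, KO with DSS was at least 2-fold higher for 5 of the 9, Ccl4 (1.13) joining the other four, where 6.14% of all genes were, and 2-fold lower for 0, where 5.05% were. It was above 0 for 8 of the 9, where 51.8% of all genes were.

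Between genotypes, KO was at least 2-fold higher than WT with DSS for 4 of the 9 genes (Ccl2, Ccl3, Ccl7 and Ccl11), where 4.22% of all genes were, and lower for 0, where 1.21% were. Without DSS it was at least 2-fold higher for 2 of the 9 (Ccl9 and Ccl12), where 3.43% of all genes were, and lower for 0, where 5.98% were. The count without DSS rests on the untreated KO array, which stood apart in genes of position. The median KO minus WT difference of the 9 genes was 0.83 with DSS and 0.71 without, beside -0.02 and -0.01 for all genes, and 7 of the 9 lay above 0 in each treatment, where 45.3% and 48.2% of all genes did. The comparisons within a genotype and within a treatment share arrays, so they are not independent of each other. All 9 genes passed the filter, but Ccl3 passed only through the KO DSS array and Ccl12 only through the KO arrays, and the counts are descriptions.

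**Figure D2:**
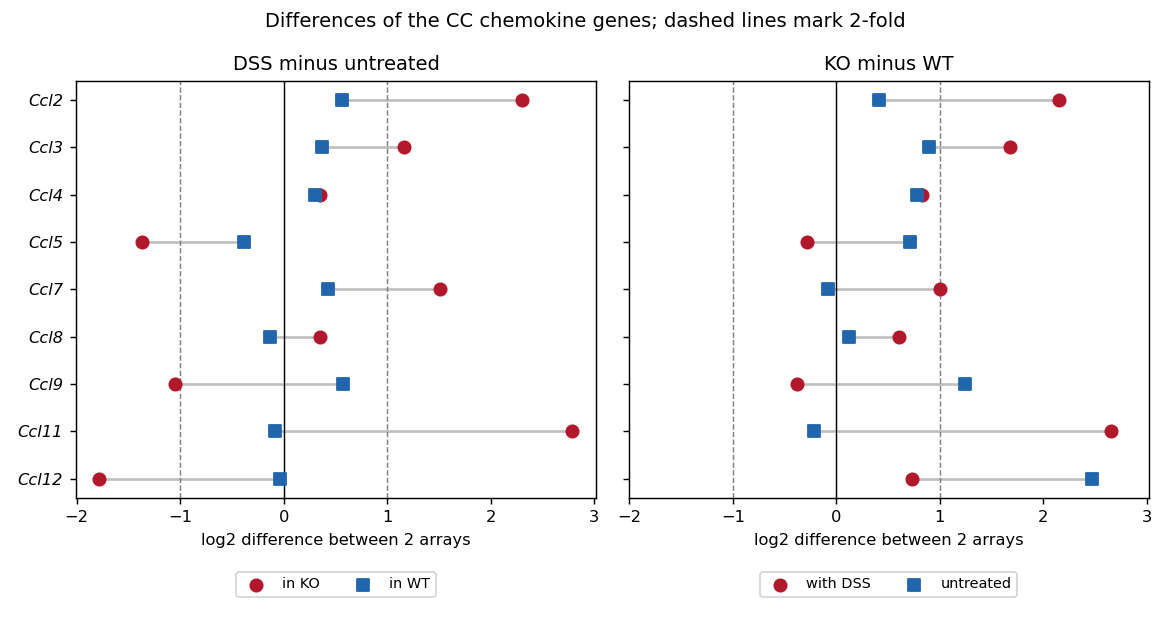
Log2 differences of the 9 genes between pairs of arrays, DSS minus untreated on the left (circles KO, squares WT) and KO minus WT on the right (circles with DSS, squares untreated); dashed lines mark 2-fold. On the left, KO points run from -1.78 (Ccl12) to 2.79 (Ccl11) while WT points stay between -0.38 and 0.57.

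**Figure D3:**
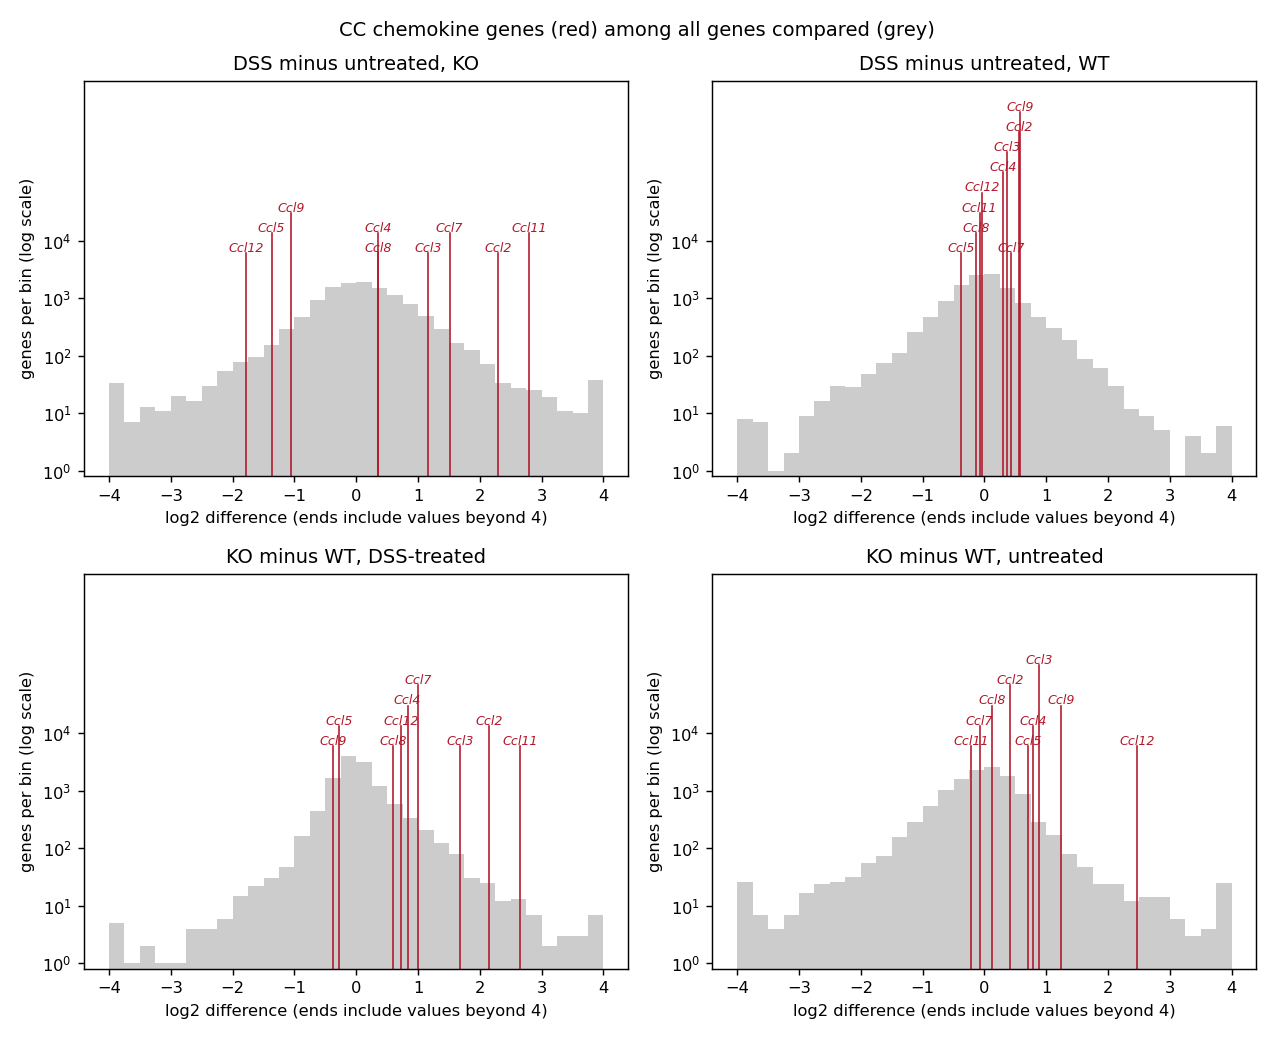
Differences of the 9 genes (red lines) among all 12189 genes compared (grey bars, log axis of genes per bin of log2 difference), in the 4 comparisons of array pairs. The CC chemokine genes spread to both sides with DSS in KO, stay near the centre with DSS in WT, and lie mostly to the right of the centre for KO minus WT.

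Over all 4 arrays, limma's additive model of treatment and genotype called 0 of 12189 genes at an adjusted p under 0.05 for either term (0.0% of genes), with 1438 genes (11.8%) at an unadjusted p under 0.05 for DSS (7.65% higher and 4.15% lower) and 176 (1.44%) for genotype (0.673% higher in KO). None of the 9 CC chemokine genes had an unadjusted limma p under 0.05 for DSS. For DSS against untreated, Ccl2 had the smallest adjusted p of the 9 genes, with a mean log2 difference of 1.43 (SE 0.53, adjusted p = 0.441), higher with DSS in both genotypes. Ccl7 followed with 0.97 (SE 0.37, adjusted p = 0.453) and Ccl5 with -0.88 (SE 0.34, adjusted p = 0.462), also in the same direction in both genotypes. Ccl11 had 1.36 (SE 0.78, adjusted p = 0.590), with opposite signs in the genotypes, and the highest adjusted p was that of Ccl8, at 0.905. Before moderation, the spread in this model is the difference of the DSS effect between KO and WT, with 1 residual degree of freedom. limma then draws each gene's variance towards that of other genes, with a median of 2.68 prior degrees of freedom. Each SE and p thus rests in large part on other genes, for genotype as for DSS.

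For KO against WT, every adjusted p of the 9 genes was 1.00 in limma. Of the 9, 2 had an unadjusted limma p under 0.05, where 1.44% of all genes had (0.673% higher in KO). They were Ccl4 (0.81, SE 0.23, unadjusted p = 0.0299) and Ccl12 (1.60, SE 0.54, unadjusted p = 0.0453), both higher in KO in both treatments. Ccl3 (1.29, SE 0.49) and Ccl2 (1.28, SE 0.53) were also higher in KO in both treatments. Ccl12 passed the filter only through the KO arrays and Ccl3 only through the KO DSS array. Their presence among the genes tested thus depended on high KO values, and their differences are descriptions. The differences of Ccl5, Ccl7, Ccl9 and Ccl11 had opposite signs with and without DSS.

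Likeness among the 9 genes was measured as the root mean square distance, in log2 units over the 4 arrays, between profiles centred on their own mean. Ccl4 and Ccl8 were nearest to each other (0.27), followed by Ccl2 and Ccl11 (0.29) and by Ccl5 and Ccl9 (0.37). Ccl11 and Ccl12, next to each other on the chromosome, were farthest apart (1.63). Among all other genes, the nearest to Ccl2 were Medag (0.061), Clec4d (0.11) and Il5ra, and to Ccl7 Atp1b2 (0.025), Inhba (0.062) and Gm13889 (0.066). For Ccl11 they were Mgp (0.10), Il5ra and Gm6377. Il5ra and Gm6377 were each under the background limit on 2 of the 4 arrays, so their distances are not given and their places are uncertain. Mgp, which encodes matrix Gla protein, had values of 9.73 with DSS and 6.75 without in KO, and of 6.93 with DSS and 7.22 without in WT. The nearest to the other genes were Mmp8 to Ccl3 (0.13), Mapk11 to Ccl4 (0.029), Fam98c to Ccl5 (0.013), Sst to Ccl8 (0.018), Oma1 to Ccl9 (0.039) and Chrnb4 to Ccl12 (0.12). With 4 arrays, many genes lie close to any profile.

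Of 9 measured receptors and decoys of these chemokines, 5 passed the filter. Ccr1, the receptor of Ccl3, Ccl5 and Ccl9, had a value of 5.38 with DSS and 4.01 without in KO, and 4.01 with DSS and 4.24 without in WT. Like Ccl2 and Ccl11, it stood alone on the KO DSS array, higher there by 1.37 than on the WT DSS array. Ackr1, a decoy on venules that binds many chemokines, had 5.81 with DSS and 4.77 without in KO, and 5.10 with DSS and 4.59 without in WT, higher with DSS in both genotypes. Ccr2, the receptor of Ccl2 and Ccl7 on monocytes, hardly differed, at 4.85 with DSS and 4.61 without in KO, and 4.77 with DSS and 4.61 without in WT. Among the others, the decoy Ackr2 lay between 3.20 and 3.77, Ccrl2 between 3.96 and 4.61, Ackr4 between 2.47 and 3.16, Ccr4 between 2.56 and 2.85 and Ccr8 between 1.68 and 1.89. No receptor passed limma's test over all genes, where the lowest adjusted p was 0.422 (Ackr1, DSS against untreated).

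Of 9 other CC chemokines measured, 5 passed the filter. None of the 9 was 2-fold higher with DSS in either genotype. Of all genes without a filter, 7.41% were in KO and 3.92% in WT, so a count of 0 among 9 is near these shares. Ccl6, which lies beside Ccl9 on the chromosome, had values of 7.67 with DSS and 9.70 without in KO, against 8.63 with DSS and 10.12 without in WT. It was lower with DSS in both genotypes, with differences of -2.03 in KO and -1.49 in WT and a mean log2 difference of -1.76 in limma (SE 0.26, adjusted p = 0.365). Ccl28, an epithelial chemokine for antibody-secreting cells, had 6.87 with DSS and 7.01 without in KO, against 7.28 with DSS and 8.88 without in WT. Ccl20, made by epithelium over lymphoid follicles, had 5.09 and 4.37 in KO with and without DSS, against 4.58 and 5.86 in WT with and without DSS. Ccl25, the chemokine of the small intestine, had its highest value, 4.79, in the untreated KO colon, against 3.63 in the untreated WT colon.

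Of 10 cytokines known to induce these chemokines or to act beside them, 7 were highest on the KO DSS array. Of all genes that passed the filter, 22.7% were. Of the 10, 6 in KO and 2 in WT were 2-fold or more higher with DSS, where 7.41% and 3.92% of all 18193 genes were without a filter. The median DSS difference of the 10 was 1.06 in KO and 0.25 in WT. The filter passed 4 of them, Il6 only through the KO DSS array, and Il1a and Ifng, the other 2 of the 6 in KO, did not pass it. Il1b had values of 7.72 with DSS and 4.41 without in KO, and 6.07 with DSS and 4.44 without in WT. Tnf had 5.16 with DSS and 4.05 without in KO, and 4.55 with DSS and 4.19 without in WT. Il33, an alarmin of epithelium and stroma, had 7.74 with DSS and 2.99 without in KO, and 5.07 with DSS and 3.93 without in WT. Il6 had 6.28 with DSS in KO, at least 4.89 log2 units above the untreated KO array at the limit, and lay under the background limit on the other 3 arrays. Among 9 measured feedback genes of NF-kB, a factor that these cytokines activate, 4 were 2-fold or more higher with DSS in KO (Nfkbiz, Tnfaip3, Icam1 and Birc3). In WT 1 was (Bcl3). The shares of all genes without a filter were again 7.41% in KO and 3.92% in WT. Icam1, an adhesion molecule for leukocytes, had 6.75 with DSS and 4.51 without in KO, and 5.25 with DSS and 4.94 without in WT. The other 3 were low on the untreated KO array. With the untreated WT array in its place 1 gene of the list, Icam1, was 2-fold higher, where 4.24% of all genes were without a filter.

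Of 9 measured proteases that can cut CC chemokines, 4 were 2-fold or more higher with DSS in KO (Mmp3, Mmp8, Mmp13 and Mmp14), where 7.41% of all genes were without a filter, and 2 in WT (Mmp3 and Mmp13), where 3.92% were. Mmp8 lay above the array median on the KO DSS array alone. The stromelysin gene Mmp3 had values of 8.21 with DSS and 1.58 without in KO, and 5.46 with DSS and 1.80 without in WT. The collagenase gene Mmp13 had 7.87 with DSS and 2.47 without in KO, and 4.20 with DSS and 2.81 without in WT. Dpp4, a membrane peptidase that trims the ends of several chemokines, lay between 5.66 and 6.09 on all arrays.

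Markers of cells that make or follow CC chemokines differed unequally. The summed linear level of 9 measured macrophage and monocyte markers was 1484 with DSS and 1156 without in KO, against 1046 with DSS and 1166 without in WT, none under the background limit. Their median DSS difference was 0.24 in KO and -0.24 in WT, beside medians of 0.35 and 0.30 for the 9 CC chemokine genes. Fibroblast markers summed to 3552 with DSS and 1775 without in KO, against 1721 with DSS and 2234 without in WT. Of 6, 4 (Col1a1, Pdgfra, Pdgfrb and Dcn) were 2-fold or more higher with DSS in KO, where 7.41% of all genes were without a filter. In WT 0 were, where 3.92% of all genes were. With the untreated WT array as baseline, 2 of the 6 (Pdgfrb and Dcn) were that much higher in KO with DSS, where 4.24% of all genes were. Neutrophil markers, 6 measured, summed to 706 with DSS and 39.1 without in KO, against 123 with DSS and 35.1 without in WT. S100a8 (8.30) and S100a9 (8.38) made up most of the sum on the KO DSS array. The median DSS difference of the list was smaller, at 1.21 in KO and 0.46 in WT. Mmp9 differed by 0.70 in KO and 0.56 in WT, and Cxcr2, which did not pass the filter, by -0.37 and 0.35. B cell markers, 3 measured, summed to 388 with DSS and 50.3 without in KO, against 71.0 with DSS and 220 without in WT. Endothelial markers, 5 measured, summed to 119 with DSS and 75.1 without in KO, against 81.6 with DSS and 87.6 without in WT, with Sele near or under the background limit throughout (0.77 to 1.69). The part of these cell types in the chemokine values was not tested.

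**Figure D4:**
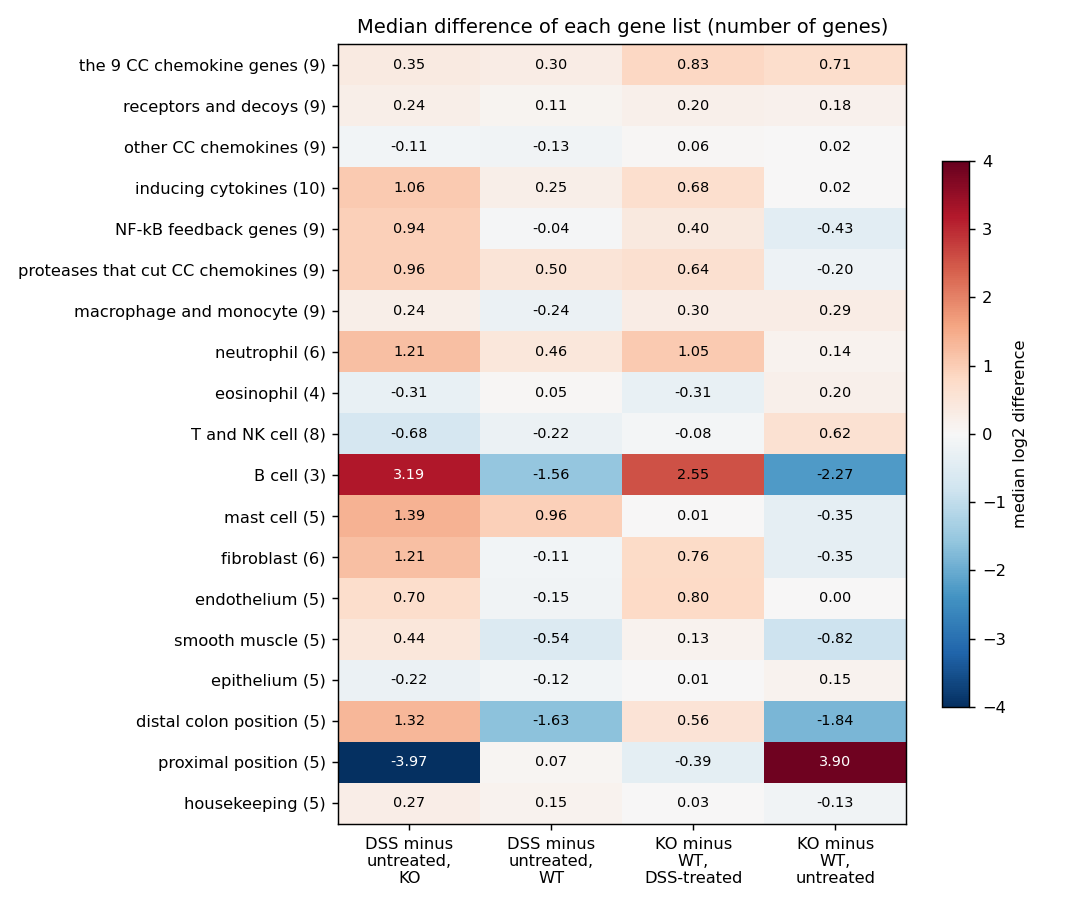
Median log2 difference of each gene list in the 4 comparisons of array pairs, with the number of measured genes in brackets, whether or not they passed the filter; red is higher and blue lower. Inducing cytokines have a DSS median of 1.06 in KO and 0.25 in WT, while the distal and proximal position lists have -1.84 and 3.90 for KO minus WT in untreated colon.

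Mast cell markers, 5 measured, summed to 166 with DSS and 135 without in KO, and to 174 with DSS and 139 without in WT. These sums hide opposite differences. Kit was lower with DSS (-1.31 in KO and -1.08 in WT). Mcpt1 (3.30 and 1.77), Mcpt2 (2.56 and 1.36) and Cpa3 (1.39 and 0.45) were higher. The median DSS difference of the list was 1.39 in KO and 0.96 in WT, and 0.97 for KO with DSS against untreated WT. Smooth muscle markers summed to 5478 with DSS and 3581 without in KO, and to 4813 with DSS and 6957 without in WT. Epithelial markers summed to 9844 with DSS and 11346 without in KO, and to 9941 with DSS and 10695 without in WT, with no gene 2-fold apart in any of the 4 comparisons. Housekeeping genes, 5 measured, had medians between -0.13 and 0.27 in the 4 comparisons.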

How the data were processed

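Total RNA of distal colon was labelled as biotinylated cRNA and measured on Affymetrix arrays, per the labels' protocols. The authors' deposited values, from 0.16 to 13.23 for 45101 probe sets, were read as log2, and their summarization and normalization are not given in the sources used here. They were used as deposited. The number of arrays, 1 in each of 4 groups, limits the precision.

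Probe sets were named by the platform annotation, with symbols updated by gene number through RefSeq (GRCm38.p6). Of them, 34945 had 1 symbol and 932 had several and were not used. A probe set was kept when above its array's median (50th percentile) on at least 1 array, and a gene was represented by its brightest kept probe set. The CC chemokine genes and the lists were counted whether kept or not.

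Pairs of arrays were compared by log2 difference and by counts at least 2-fold apart, without a test. The additive model was fitted with limma 3.58.1 in R 4.3.3 (lmFit, eBayes with intensity trend, two-sided, Benjamini-Hochberg over all genes, threshold 0.05), after it was tested on simulated data. Python 3.11.15, numpy 2.4.6, pandas 2.3.3 and matplotlib 3.10.9 were used. Alternatives changed the normalization (quantile or median centring), the filter (absent, or at the 75th percentile), the probe set (mean of a gene's probe sets, or only those specific to a transcript), limma's covariate and trend, and the arrays (each left out).

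The genes and the 18 lists, from textbook knowledge, were chosen with earlier results of these data known. Named genes were all 9 CC chemokine genes with every probe set, every measured receptor, up to 4 genes of each other list with the largest mean absolute difference, and the nearest profiles (3 for Ccl2, Ccl7 and Ccl11, 1 for the others). Genes named beyond that rule (Epx, Siglecf, Sele, Dpp4 and members of counts of 5 or fewer) were chosen after their values were seen.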

Additional observations from a re-analysis of the deposited data

Results flagged for a closer look

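For 5 of the 9 CC chemokine genes, a difference ran in opposite directions in the 2 groups set side by side. With 1 array in a group none of these was tested. The value given for each is the DSS difference in KO minus that in WT, which equals the KO minus WT difference with DSS minus that without. Ccl11 had 2.87, with DSS differences of 2.79 in KO and -0.08 in WT, and KO minus WT differences of 2.65 with DSS and -0.22 without. Ccl9 had -1.62, with DSS differences of -1.05 in KO and 0.57 in WT, and KO minus WT differences of -0.38 with DSS and 1.24 without. Ccl7 had 1.08, from KO minus WT differences of 1.00 with DSS and -0.08 without. Ccl5 had -0.99, from KO minus WT differences of -0.28 with DSS and 0.71 without. Ccl8 had 0.48, from DSS differences of 0.35 in KO and -0.13 in WT.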

How the results depend on the processing

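Under the 6 alternatives of normalization, filter and probe set, no difference of a CC chemokine gene between a pair of arrays reversed or moved by more than 1.5-fold. Most of this was fixed in advance. The 9 genes were counted whether or not they passed a filter, and only Ccl9 had more than 1 probe set. For the other genes only the normalization could change a value, and the array medians lay between 3.42 and 3.46. Ccl3 and Ccl4 did not pass the 75th percentile filter. The counts of 2-fold genes among the 9 held but for Ccl7. It was below the limit for KO against WT with DSS under median centring and quantile normalization (3 genes in place of 4). The 75th percentile filter lowered the number of all genes at least 2-fold higher in KO with DSS to 329, from fewer genes tested. With the untreated WT array in place of the untreated KO array, a choice made after the data were seen, the KO DSS array was 2-fold lower for 0 of the 9 genes, the median was 1.13, Ccl9 (0.19) and Ccl12 (0.69) reversed, and 748 of all genes were 2-fold higher; the cause was not tested. limma called 1 gene for DSS without the covariate and 1 after quantile normalization, and 0 with each array left out. Among the 9 genes, 0 passed under any limma alternative (adjusted p from 0.191 to 1.00). Those fits reversed the DSS difference of Ccl3 (-0.075), Ccl4 (-0.09) and Ccl8 (-0.19) without the KO DSS array, of Ccl4 without the untreated WT array (-0.065), and of Ccl9 (0.38) and Ccl12 (0.33) without the untreated KO array. They reversed the KO minus WT difference of Ccl7 (-0.30) and Ccl11 (-0.18) without the KO DSS array, and of Ccl5 (-0.47) and Ccl9 (-0.10) without the untreated KO array. No paired analysis was possible because each group holds 1 array.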
